A study of Arabidopsis thaliana with 12 samples.

Results

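Photosystem and antenna subunit genes were followed in Arabidopsis thaliana (thale cress) on expression arrays. The set was defined as every probe that the platform annotation assigns to exactly 1 gene with the locus AT5G64040 (PSAN), AT2G34420 (LHCB1.5, listed as LHB1B2 in RefSeq), AT1G67740 (PSBY) or AT2G30570 (PSBW). Each of the 4 genes had 1 such probe, so the set is 4 of the 689 loci that had a probe of their own. The recovery group held 6 samples from wild-type plants of ecotype Columbia 0 that spent 24 h at 4 °C in medium light, a photoinhibitory treatment, and then another 24 h at 20 °C, also in medium light. The cold group held 6 samples from wild-type Columbia 0 plants taken at the end of the same 24 h at 4 °C. Every plant had thus been through the cold, and no group without it is part of the comparison. The labels used here name no tissue and no plant age, and do not say whether samples of a group came from separate plants.

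In chloroplasts, photosystem II and photosystem I work in series: light energy collected by chlorophyll-binding antenna proteins drives electrons from water through photosystem II, along a carrier chain that ends in plastocyanin, and through photosystem I to ferredoxin. Most antenna proteins and the smaller subunits of both photosystems are encoded in the nucleus and imported into the chloroplast. In strong light at low temperature, absorbed energy exceeds what metabolism can use, photosystem II is damaged faster than it is repaired, and the plant is said to be photoinhibited. PSAN encodes a photosystem I subunit on the lumenal side of the thylakoid membrane, where plastocyanin delivers its electrons. LHCB1.5 encodes a light-harvesting protein of the main trimeric antenna of photosystem II. PSBY and PSBW encode small membrane-spanning subunits of photosystem II, and PSBW is known for holding photosystem II and its antenna together in large assemblies.

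The deposited signals are linear, never negative and at most 100, and they differ in scale between the groups. Sample medians were 0.0971 to 0.128 in recovery and 0.276 to 0.315 in cold, and 5 probes per recovery sample, against 0 to 2 per cold sample, stood within 0.01 of 100. Between 11.3% and 16.4% of probes were listed at 0 in recovery samples and between 5.26% and 6.57% in cold samples. Within a group, sample 1 matched sample 2 most closely, 3 matched 4 and 5 matched 6, so each of these pairs was averaged for tests and for each mean ± SD, with n = 3 per group. The p-values measure the spread between these averaged samples, which may be technical. The number of arrays limits the precision.

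PSAN, LHCB1.5 and PSBY were brighter in every recovery sample than in any cold sample, both in deposited signal and in rank within the array, whereas the deposited signals of PSBW overlapped. As deposited, only 4.91% of all probes had all 6 recovery values above all 6 cold values, and 49.2% had all 6 below. By rank, where the scale of an array plays no part, 19% of all probes were brighter in all 6 recovery samples and 15.9% were dimmer. After quantile normalization, limma called 3 of the 4 genes higher and 1 lower in recovery at an adjusted p of 0.05. Over all probes 40.7% were called, 21.4% higher and 19.3% lower, so a call by itself does not set these genes apart. The balance of all calls depended on the scaling: 52.5% were higher after quantile normalization, against 8.66% as deposited, 69.8% with samples centred on their medians and 63.1% where signals were first brought to a common median.

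PSAN had the largest change of the 4 genes under each of the 5 scalings compared. Its deposited signal had a lowest value of 4.296, a median of 6.21 and a highest value of 7.78 in recovery, against 1.04, 1.27 and 1.43 in cold. The groups did not overlap, and every recovery sample was above the brightest cold sample by a wide margin. The mean signal was 6.14 ± 1.15 in recovery and 1.27 ± 0.0381 in cold (SD, n = 3 each), a ratio of 4.84. Over pair means, the coefficient of variation of the signal was 18.7% in recovery and 3.01% in cold. The SD of the quantile-normalized log2 value was 0.284 in recovery and 0.146 in cold. The SD of the rank was 20.8 places around a mean of 90.3 in recovery, and 46.2 around a mean of 460 in cold. Relative to its mean, the rank thus also varied more in recovery. The cold ranks include sample 1 at 596, against a group median of 433.5. Recovery sample 1 was the dimmest of its group at 4.296, while its partner, sample 2, stood at 5.62. Within pairs, the brighter sample exceeded the dimmer by 1.104 to 1.31 times in recovery and by 1.03 to 1.37 times in cold, the widest gap being that of cold samples 1 and 2 at 1.04 and 1.43.

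In rank, PSAN lay at 62 to 127 from the brightest probe in recovery, against 423 to 596 in cold. It was therefore among the brightest 3.69% of probes in every recovery sample, whereas in cold its best place was 12.3% from the top. After quantile normalization PSAN rose by 2.59 ± 0.17 log2 units (SE, n = 3 per group), which is 6.01-fold (limma, adjusted p = 1.22e-06). This was the 13th largest rise on the array and the 2nd among probes with a single gene. The change as deposited, 2.22, exceeded that of 99.8% of all probes. On the percentile scale of ranks, PSAN rose by 10.8 ± 0.748 points (SE; limma over all probes, adjusted p = 4.55e-05). That gain exceeded the gain of 76.3% of all probes; the median probe moved by 2.09 points, and a bright probe has few places left to gain.

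LHCB1.5 was among the brightest probes of the array in both groups and climbed further in recovery. Its deposited signal had a lowest value of 23.0, a median of 26.3 and a highest value of 31.4 in recovery, against 6.83, 7.56 and 8.48 in cold. No recovery sample came near the cold range. The mean signal was 26.5 ± 3.03 in recovery and 7.63 ± 0.392 in cold (SD, n = 3 each), a ratio of 3.47. The coefficient of variation was 11.4% in recovery and 5.14% in cold. Sample 6 was the brightest of its group in each condition.

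By rank, LHCB1.5 held places 21 to 25 in recovery, against 57 to 77 in cold. By mean rank, 21 probes of the array were brighter in recovery and 64 in cold. Its percentile rank rose by 1.28 ± 0.257 points (SE; limma over all probes, adjusted p = 0.00532), less than the median probe and more than 47.7% of all probes. In cold LHCB1.5 already stood 1.66% to 2.24% from the top. Its mean rank there left less room than the 2.09 points by which the median probe moved. A gain above the median was therefore out of reach, and these shares do not mark the rise as small. The spread of its rank in recovery was narrow, with a mean of 22.5 ± 1.0 in recovery and 66.7 ± 5.20 in cold (SD, n = 3 each). After quantile normalization it rose by 1.44 ± 0.13 log2 units (SE, n = 3 per group; limma, adjusted p = 1.37e-05). This is 2.71-fold, smaller than the 3.47-fold ratio of deposited means. The change was 2.96 with samples centred on their medians and 3.24 where signals were first brought to a common median. LHCB1.5 belongs to a family of 5 closely related LHCB1 genes, of which it alone had a probe of its own here, and how far its probe also binds transcripts of its relatives was not tested.

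**Figure D1:**
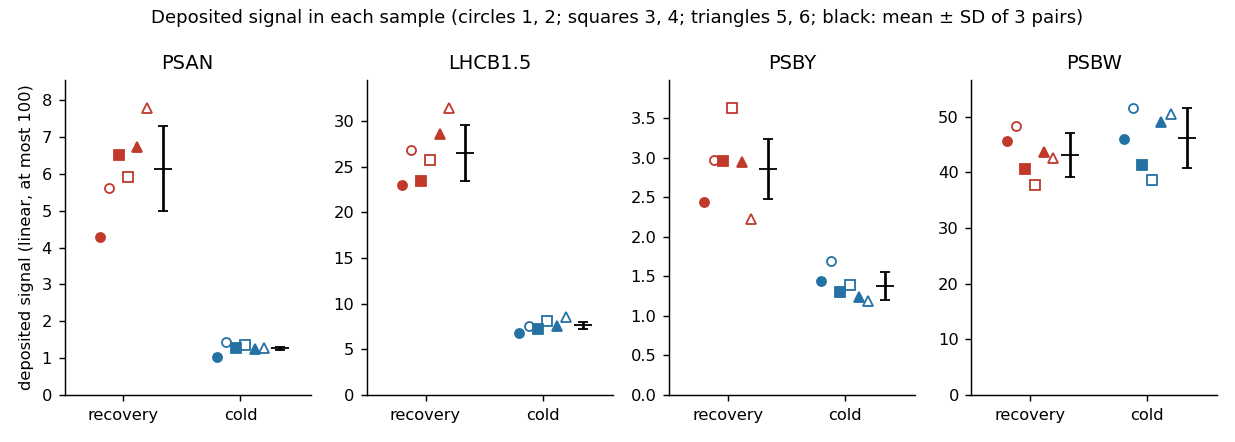
Deposited signal of the 4 genes (vertical axes, linear, each panel with its own scale from 0) in the 6 recovery and 6 cold samples, with sample pairs sharing a symbol and black bars giving the mean ± SD of 3 pairs. PSAN, LHCB1.5 and PSBY lie higher in each recovery sample than in any cold sample, while the PSBW samples overlap, between 37.7 and 48.3 in recovery and between 38.7 and 51.5 in cold.

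PSBY changed less than PSAN in deposited signal. Its signal had a lowest value of 2.22, a median of 2.96 and a highest value of 3.63 in recovery, against 1.19, 1.35 and 1.70 in cold. The groups did not overlap, though the gap between the dimmest recovery sample and the brightest cold sample was narrower than for PSAN or LHCB1.5. The mean signal was 2.86 ± 0.381 in recovery and 1.38 ± 0.177 in cold (SD, n = 3 each), a ratio of 2.08. The coefficients of variation, 13.3% in recovery and 12.8% in cold, were close to each other. The samples of a recovery pair differed by 1.22 to 1.32 times, and the highest pair mean exceeded the lowest by 1.28 times, so in recovery PSBY varied about as much within pairs as between them.

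PSBY ranked 157 to 217 from the brightest probe in recovery, against 359 to 469 in cold. After quantile normalization it rose by 1.44 ± 0.14 log2 units (SE, n = 3 per group; limma, adjusted p = 2.00e-05), a 2.70-fold rise. That change is nearly the same as for LHCB1.5, although as deposited LHCB1.5 changed by 1.79 and PSBY by 1.02 on the log2 scale. The change of PSBY was 2.198 with samples centred on their medians and 2.45 where signals were first brought to a common median. Its rank rose by 7.04 ± 0.628 percentile points (SE; limma over all probes, adjusted p = 0.000127), more than 66.2% of all probes.

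PSBW was the brightest of the 4 probes in every sample and stood near the top of the array in both groups. Its deposited signal had a lowest value of 37.7, a median of 43.1 and a highest value of 48.3 in recovery, against 38.7, 47.5 and 51.5 in cold. The ranges overlapped almost fully, and samples 3 and 4 were the dimmest of their group in each condition. The mean signal was 43.1 ± 3.92 in recovery and 46.1 ± 5.38 in cold (SD, n = 3 each), a difference smaller than the spread of either group. None of its values reached the ceiling of 100.

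In rank PSBW lay at 12 to 18 in recovery and at 8 to 12 in cold, so that rank 12 occurred in both groups. By mean rank, 13 probes were brighter than PSBW in recovery and 8 in cold; 6 of them were brighter in both, 7 in recovery alone and 2 in cold alone. After quantile normalization PSBW fell by 0.56 ± 0.19 log2 units (SE, n = 3 per group; limma, adjusted p = 0.0377), but it was higher in recovery, by 1.08, with samples centred on their medians and, by 1.36, where signals were first brought to a common median. As deposited the change was -0.096 (adjusted p = 0.573). The median change of all probes was -0.86 as deposited, 0.11 after quantile normalization, 0.020 with cyclic loess, 0.31 with centring and 0.15 with a common median. Relative to that median, PSBW lay at 0.77 as deposited and -0.68 after quantile normalization. Its change exceeded that of 80.3% of all probes as deposited, yet only that of 22.5% after quantile normalization and of 24.1% with cyclic loess. The call also missed the threshold without recovery samples 3 and 4 (-0.40, adjusted p = 0.187), without cold samples 1 and 2 (-0.47, adjusted p = 0.104), without cold samples 5 and 6 (-0.52, adjusted p = 0.0909), and without recovery samples 5 and 6 (-0.61, adjusted p = 0.0706). No direction of PSBW therefore held under all settings tried.

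**Figure D2:**
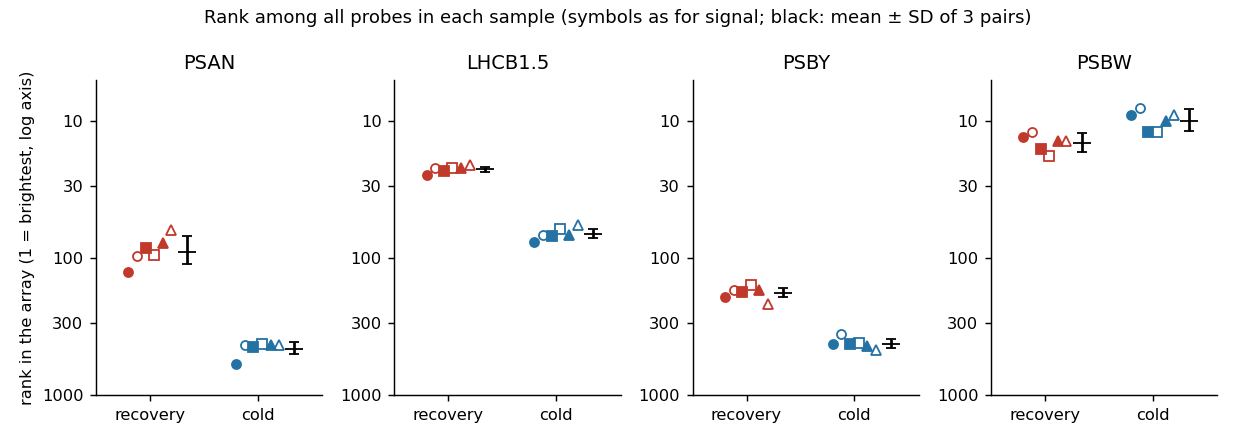
Rank of each of the 4 probes among all probes of its array (vertical axis, logarithmic, 1 for the brightest probe at the top) in the 6 recovery and 6 cold samples; symbols mark sample pairs and black bars the mean ± SD of 3 pairs. PSAN, LHCB1.5 and PSBY stand nearer the top in each recovery sample, and PSBW lies at 12 to 18 in recovery and 8 to 12 in cold.

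**Figure D3:**
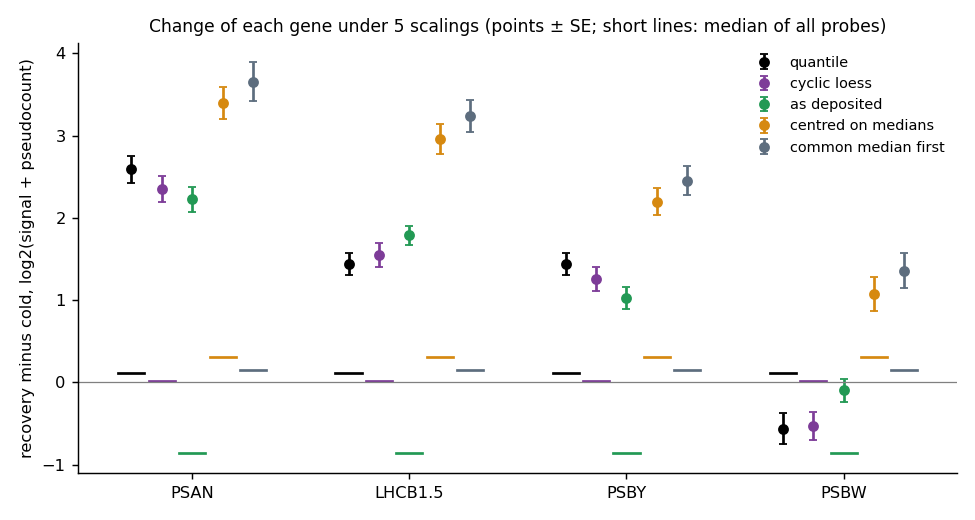
Recovery minus cold on the scale of log2(signal + pseudocount), as points ± SE (n = 3 pairs per group), for the 4 genes under 5 ways of scaling the samples; short horizontal lines give the median change of all probes under the same scaling. PSAN, LHCB1.5 and PSBY are above 0 and above that median each time, whereas PSBW is below 0 after quantile normalization, with cyclic loess and, within its spread, as deposited, and above 0 under the other scalings.

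Differences between the 4 genes were also taken within each array, as deposited, where a scaling factor of the array nearly cancels. These differences of change are descriptions, without a test. PSAN increased relative to PSBW by 2.32 ± 0.25 log2 units (SE, n = 3 per group), and LHCB1.5 relative to PSBW by 1.88 ± 0.16. PSBY increased relative to PSBW by 1.12 ± 0.22. The 6 recovery and 6 cold samples did not overlap in any of these differences, so the other three genes moved upward against PSBW whatever the direction of PSBW itself. PSAN increased relative to PSBY by 1.198 ± 0.23 and LHCB1.5 relative to PSBY by 0.76 ± 0.23, again without overlap. As deposited, only the difference between PSAN and LHCB1.5, 0.44 ± 0.11, had overlapping samples. Its size depended on the scaling: as deposited PSAN changed by 2.22 and LHCB1.5 by 1.79. After quantile normalization these changes were 2.59 and 1.44, and with cyclic loess 2.35 and 1.55. In the quantile-normalized values the groups did not overlap for PSAN against LHCB1.5, whereas they did for LHCB1.5 against PSBY. The size of the difference between LHCB1.5 and PSBY also depended on the scaling: after quantile normalization both changed by 1.44. With cyclic loess LHCB1.5 changed by 1.55 and PSBY by 1.26. The changes were 2.96 and 2.198 with samples centred on their medians, and 3.24 and 2.45 where signals were first brought to a common median.

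Few other genes of photosynthesis could be read beside them. Of 83 nuclear genes listed for the photosystems, their antennae, the electron transport chain, the plastid ATP synthase and the Calvin cycle, 7 had a probe of their own, the 4 above included, and a further 7 were only on probes shared by several genes and are not named. The other measured genes were PSB27, PRK and SBPASE. After quantile normalization 2 of these 3 rose and 1 fell, though the change of SBPASE turned to -0.29 as deposited. Over all probes 21.4% were called higher and 19.3% lower, and 3 genes are too few to set against these shares. The median change of the 7 genes, 4 of them the set itself, was 1.44, against 0.11 over all probes. For the 3 genes besides the photosystem and antenna set it was 0.73. These medians are descriptions and not a test, because the genes were chosen with earlier results of these data known. Measured from the photosystem II list were the subunits PSBY and PSBW and the assembly factor PSB27. Their median was -0.56, which is the value of PSBW. Of these, 1 was higher and 2 lower, a count that includes PSBW, whose sign depends on the scaling. PSB27, a lumenal factor for assembly and repair of photosystem II, fell by 1.89 ± 0.40 log2 units (SE, n = 3 per group; limma, adjusted p = 0.00396), a call that was lost where signals were first brought to a common median (-0.84, adjusted p = 0.192). Its deposited signals ran from 0.714 to 1.23 in recovery and from 1.87 to 7.26 in cold. Its cold samples 3 and 4 were far dimmer than the other four. PRK encodes phosphoribulokinase, which regenerates the carbon dioxide acceptor of the Calvin cycle, and its change was 1.44 ± 0.17 (limma, adjusted p = 0.0001). SBPASE, another regeneration enzyme of that cycle, changed by 0.73 ± 0.18 (limma, adjusted p = 0.0102), with the sign turned as deposited. For both enzymes the deposited signals of the groups overlapped while the ranks did not. PRK ranked 420 to 490 in recovery and 903 to 1356 in cold, and SBPASE 634 to 814 in recovery and 894 to 1222 in cold. None of 15 listed markers of root, epidermis and trichome, guard cell and phloem had a probe of its own, so the makeup of the tissue could not be read, and fewer cells of a type cannot be told apart from less RNA per cell.

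**Figure D4:**
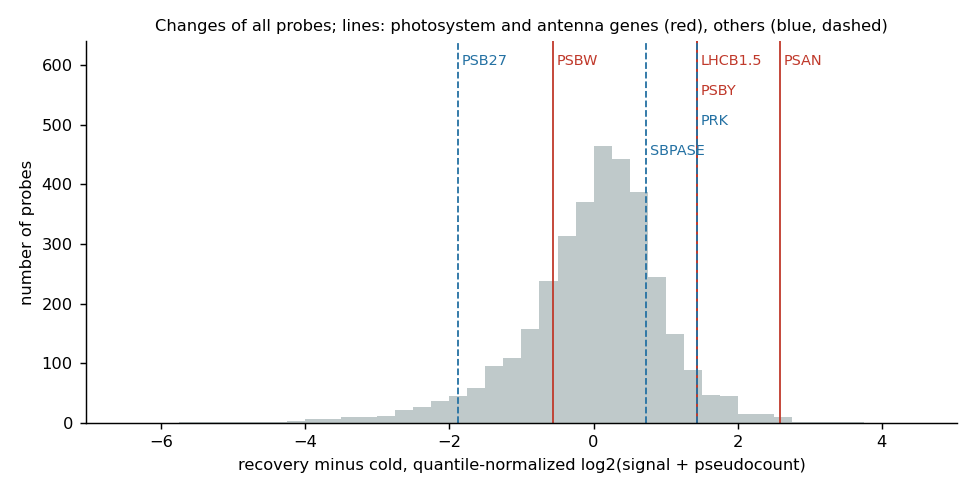
Number of probes (vertical axis) by their change between recovery and cold after quantile normalization (horizontal axis, log2) for all probes of the array. Solid red lines mark the 4 photosystem and antenna genes and dashed blue lines PSB27, PRK and SBPASE; PSAN at 2.59 lies in the upper tail, LHCB1.5, PSBY and PRK coincide near 1.44, and PSBW at -0.56, a sign that depends on the scaling, lies below the median of all probes, above 22.5% of them.

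Genes with the most similar profiles were sought among the other 688 loci with a single-gene probe, by the root mean square difference over the 12 samples between quantile-normalized log2 values, each centred on its own mean. For PSAN the closest were CYN (cyanase, which breaks down cyanate), at 0.17, AT1G64510 (a plastid ribosomal protein of the S6 family), at 0.30, and AT1G44830 (a transcription factor of the ERF family), at 0.36. The mean cold signal of AT1G64510, 0.0488, lay close to the pseudocount of 0.0415. The median distance of all candidates from PSAN was 1.32. CYN rose by 2.57 ± 0.16 (SE, n = 3 per group; limma, adjusted p = 1.22e-06), almost the same change as that of PSAN. CYN was picked for its closeness in these same values, so neither the match nor the p-value is a separate result. LHCB1.5 was closest to CUTA, a copper-binding chloroplast protein, at 0.13, to CHLM, a methyltransferase of the chlorophyll synthesis pathway, at 0.16 and to LpxA, an acyltransferase named after an enzyme of bacterial lipid A synthesis, at 0.16, against a median distance of 0.78. Mean deposited signals in recovery and cold were 6.33 and 2.62 for CUTA, 0.266 and 0.207 for CHLM, and 1.36 and 0.921 for LpxA. For LHCB1.5 they were 26.5 and 7.63. For PSBY the closest were CUTA at 0.19, LHCB1.5 at 0.19 and PRK at 0.20, against a median of 0.79. LHCB1.5 was thus the 2nd closest of the 688 candidates to PSBY. PSBW was closest to AT2G29870 at 0.11, AT3G06870 at 0.13 and AT3G57630 at 0.14, against a median of 0.62. As deposited, the mean signals of AT2G29870 were 0.135 in recovery and 0.587 in cold. Those of AT3G06870 were 1.601 and 2.951, and those of AT3G57630 were 0.768 and 1.94. For PSBW the deposited means were 43.1 in recovery and 46.1 in cold. All distances given here describe the quantile-normalized values, in which the profile is dominated by the difference between the groups.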

How the data were processed

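Total RNA of 12 samples was measured on expression arrays, and the authors deposited 1 table of signal values per probe; the background correction, the scaling and the meaning of 0 and 100 were not given in the sources used here. Probes were named through the platform annotation: 692 of the 3439 probes had 1 gene (690 with a locus), 870 were shared by several and 1877 had no entry; loci came from RefSeq gene identifiers (names only). Signals were taken as log2(signal + 0.0415), the pseudocount being the 10th percentile of positive signals, and quantile normalized; fold changes on this scale understate those of dim genes. Within groups, deviations of samples 1 and 2, 3 and 4, and 5 and 6 correlated at -0.042 to 0.44 over all probes and 0.32 to 0.85 over the brightest 25%, always above other samples of the group; these pairs were averaged. Recovery and cold were compared with limma 3.58.1 (R 4.3.3; lmFit, eBayes with trend) and Benjamini-Hochberg adjustment over all probes, at a threshold of 0.05. On simulated data with 200 of 3439 probes changed, the fit recovered 94% of log2 changes of 2 and 40% of those of 1. It made 8 false calls among 3239 unchanged probes. In the measured samples 1399 probes were called, and recovery with so many changed probes was not tested. The members and lists were chosen with earlier results of these data known. The text names the 4 genes, other listed photosynthesis genes with a probe of their own, and the 3 closest profiles of each. No sequence is printed. Alternatives covered scaling, pseudocount, dim probes, zeros, pairing, variance model, ranks and left-out pairs. Figures used matplotlib 3.10.9 (Python 3.11.15).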

Additional observations from a re-analysis of the deposited data

Results flagged for a closer look

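PSAN in cold sample 1 stood apart from the other 5 cold samples in rank, at 596 against 423 to 444, and in quantile-normalized log2 value, at -0.39 against 0.077 to 0.16. Its deposited signal there, 1.04, was also the lowest of the group, but within the range that the test for a single distant value allows. Without cold samples 1 and 2 the change of PSAN was 2.58 (limma, adjusted p = 6.74e-06). Of 24 groups of 6 values tested for the 4 genes, 2 were flagged, both from this sample; about 1 in 20 is flagged by chance.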

How the results depend on the processing

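PSAN, LHCB1.5 and PSBY kept their direction and their call under every alternative run, among them each pair of samples left out in turn. PSBW did not: it turned to 1.08 with samples centred on their medians and to 1.36 where signals were first brought to a common median, and missed the threshold as deposited (-0.096), with percentile ranks in place of log2 values (-0.13 points, adjusted p = 0.669) and with a variance without trend (-0.56, adjusted p = 0.0696). On the percentile scale the SE of the PSBW change, 0.231 points, exceeded the change, so that fit could not resolve so small a move. With 1 pair of samples left out, its change ran from -0.69 to -0.40, and 4 of the 6 such fits missed the threshold. The cause was not tested. As deposited, SBPASE turned to -0.29 and 2216 probes were called (192 higher, 2024 lower), against 1399 (735 higher, 664 lower) after quantile normalization. With the pair number shared by both groups as a replicate block 1381 probes were called and no call among the 4 genes changed; deviations of equally numbered pairs correlated at 0.056, 0.12 and -0.0050 across groups, so the numbers were not taken as pairing. With 12 samples taken as independent, 1764 probes were called. The signals of the 4 genes ran from 1.04 to 51.5, away from both the pseudocount and the ceiling of 100.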

Other observations

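Because PSBW stood among the brightest probes, the values of its neighbours at the top of the array are given here; this set was chosen after the values had been seen, and choice by cold rank by itself favours a dimmer rank in recovery. Of the 24 other probes among the 25 brightest by mean rank in cold, 17 had a dimmer mean rank in recovery and 12 had a higher mean deposited signal in recovery. The median ratio of their deposited means, recovery over cold, was -0.077 on the log2 scale, beside -0.096 for PSBW on the log2(signal + pseudocount) scale. Among 99 other probes of the 100 brightest in cold, that median was -0.38.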
